A study of Mus musculus with 48 samples.

Results

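The 2 opposite polarized states of p53 knockout macrophages were set against each other directly, bone marrow-derived macrophages kept with LPS and IFN-γ (KO_M1) against those kept with IL-4 plus IL-13 (KO_M2), both with vehicle only. Their libraries were taken by title and make up 6 of the 48 libraries of the series, 3 in each group. Of 51789 gene IDs, 11779 passed a filter on low counts and were tested, and all of them are covered here. The series asked how a compound, AP-3-84, changes gene expression in mouse macrophages of several origins, and neither group compared here had received it, although 18 of the 36 libraries of the shared fit had. RNA was read from the 3′ ends of transcripts (QuantSeq FWD), so a count stands for a transcript end and not for transcript length.

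Both groups came from bone marrow stem cells of C57BL/6 mice that the titles and the design text call p53 KO. The cells of both were grown for 6 days with M-CSF at 10 ng/mL, the growth factor that turns marrow cells into macrophages, and both were given DMSO for 4 h. For KO_M1 a further 24 h followed the growth phase, with LPS, a bacterial cell wall component, at 100 ng/mL and the cytokine IFN-γ at 50 ng/mL. For KO_M2 the same time passed with the cytokines IL-4 plus IL-13, each at 10 ng/mL. Wild-type cells handled in the same 2 ways (WT_M1 and WT_M2, 3 vehicle libraries each) were used to check the knockout label and to test whether the M1-M2 difference of knockout cells differed from theirs. The genotype field of the labels calls every one of these libraries wild-type, and the grouping follows the titles. The labels do not give the deleted part of Trp53, the number, sex or age of the mice, or whether replicates came from separate mice or cultures, so p-values measure only the spread between libraries, estimated over all 36 bone marrow-derived libraries, which may be technical.

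In macrophages, LPS acts through the receptor TLR4 on NF-kB and interferon regulatory factors, and IFN-γ acts through its own receptor and JAK kinases. Together they give the classically activated or M1 state, known for inflammatory cytokines, nitric oxide synthesis and glycolysis. IL-4 and IL-13 act through the receptor chain IL-4Rα on STAT6 and give the alternatively activated or M2 state, whose markers in mice include arginase 1, RELMα (encoded by Retnla), Ym1 (encoded by Chil3) and the mannose receptor. The transcription factor p53, encoded by Trp53, induces cell cycle inhibitors such as p21 (Cdkn1a) and its own antagonist Mdm2.

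Promoter sequences of 5 of the genes with the largest differences are shown to give the letters in front of genes that stand at opposite ends of the contrast. All 5 hold motif matches and were chosen with the matches known. Of the 12 lowest fold changes named below, 9 had a window and 4 of these held the STAT6-type motif, and of the 12 largest, 11 had a window and 1 held it. Each is the 250 bases before the gene's start in RefSeq on GRCm38.p6, read in the direction of the gene. Capitals mark matches, on either strand, to 3 motifs, the STAT6-type motif (TTC, any 4 bases, GAA), the core of an interferon-stimulated response element (GAAA, any 2 bases, GAAA) and a C/EBP-type motif (TTGC, any 2 bases, AA). Retnla lies at chr16:48842359-48842608 on the plus strand, Itgax at chr7:128129300-128129549 on the plus strand, Tmem26 at chr10:68723496-68723745 on the plus strand, Saa3 at chr7:46715677-46715926 on the minus strand and Ptges at chr2:30903298-30903547 on the minus strand.
Retnla: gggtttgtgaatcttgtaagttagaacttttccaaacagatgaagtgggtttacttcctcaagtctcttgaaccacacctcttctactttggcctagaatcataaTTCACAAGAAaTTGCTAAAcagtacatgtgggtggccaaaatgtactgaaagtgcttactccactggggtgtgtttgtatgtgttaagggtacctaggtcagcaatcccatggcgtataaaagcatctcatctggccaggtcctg
Itgax: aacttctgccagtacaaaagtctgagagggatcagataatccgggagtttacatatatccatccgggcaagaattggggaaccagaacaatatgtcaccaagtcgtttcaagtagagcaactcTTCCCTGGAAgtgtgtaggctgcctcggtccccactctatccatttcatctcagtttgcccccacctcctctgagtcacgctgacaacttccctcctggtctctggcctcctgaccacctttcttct
Tmem26: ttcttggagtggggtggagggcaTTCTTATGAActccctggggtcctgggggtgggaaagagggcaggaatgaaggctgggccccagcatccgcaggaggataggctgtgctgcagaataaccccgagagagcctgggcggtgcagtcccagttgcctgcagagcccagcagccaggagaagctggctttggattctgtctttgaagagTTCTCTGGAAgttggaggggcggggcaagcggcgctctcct
Saa3: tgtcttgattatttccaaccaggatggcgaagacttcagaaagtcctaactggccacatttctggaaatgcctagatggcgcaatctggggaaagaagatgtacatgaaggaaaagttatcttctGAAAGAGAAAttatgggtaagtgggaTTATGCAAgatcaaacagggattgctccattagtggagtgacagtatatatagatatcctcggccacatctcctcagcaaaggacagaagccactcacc
Ptges: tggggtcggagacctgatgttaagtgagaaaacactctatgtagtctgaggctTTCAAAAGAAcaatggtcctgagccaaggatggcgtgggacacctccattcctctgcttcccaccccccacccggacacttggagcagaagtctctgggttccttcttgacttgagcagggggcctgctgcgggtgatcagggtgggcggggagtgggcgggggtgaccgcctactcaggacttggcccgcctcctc

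The first 3 genes were higher in KO_M2 and the last 2 in KO_M1. The motifs were written from general knowledge and a match is only a match of letters. Retnla holds 1 match to the STAT6-type motif, from 145 to 136 bases before the start, beside a match to the C/EBP-type motif. Itgax holds 1 match to the STAT6-type motif and Tmem26 holds 2. Ptges, which was higher in KO_M1, holds 1 as well. Saa3 holds a match to the interferon motif and, on the other strand, one to the C/EBP-type motif. A window was found for 8915 of 11767 tested genes with a symbol. The STAT6-type motif stood in 5.85% of all 32851 windows, in 5.74% of those of tested genes, and in 15.8% (16 of 101) of those of genes higher in KO_M2 by a log2 fold change of 3 or more, against 4.59% (5 of 109) of those higher in KO_M1 by as much. The interferon motif stood in 2.98% of all windows, in 3.96% and 8.26% of those 2 groups, and the C/EBP-type motif in 9.56%, 17.8% and 16.5%. A GAS-type motif (TTC, any 3 bases, GAA), searched as well but not marked, stood in 7.02%, 7.92% and 8.26%. Over all genes called higher in KO_M2, the STAT6-type motif stood in 6.49% (75 of 1156) of windows. Over all those called higher in KO_M1 it stood in 5.3% (60 of 1132), so both were near the 5.74% of tested genes. The marked matches do not overlap each other in the sequences shown.

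The 6 libraries held 3625160 to 4195908 counts each, so that 1 count was worth 0.223 to 0.275 CPM (the usual depth-scaled unit, with library totals adjusted by the TMM method), and 14323 to 14754 genes had a count. Between 10.1% and 17.6% of a library's counts fell on its 10 highest genes. Pearson correlations of log2 CPM were 0.943 to 0.966 within KO_M1, 0.935 to 0.96 within KO_M2 and 0.843 to 0.917 between them. Several libraries stood apart within their group on some gene groups. KO_M2 replicate 1 was highest in Retnla, MHC class II and sterol genes, KO_M2 replicate 3 carried interferon-stimulated and neutrophil genes near the KO_M1 level, KO_M1 replicate 2 was highest in several early inflammatory genes, and WT_M2 replicate 1 carried M1 genes. Called fold changes and genotype differences of named genes that moved by over 1.5-fold without 1 library are also given below without it.

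Trp53 itself, the gene the label says is knocked out, lies on chromosome 11 from 69580359 to 69591873. It stood at 7.97, 9.11 and 3.79 CPM in KO_M1 and at 3.98, 2.7 and 7.19 CPM in KO_M2. The groups overlapped and the difference was not called (log2 fold change 0.58, adjusted p 0.312 by edgeR, SE 0.405). In wild-type libraries it stood at 5.38 to 9.95 CPM, which overlaps the knockout range, and a 3′ count outside the deleted part checks nothing. Of 2 p53 targets read as well, Cdkn1a, which encodes the cell cycle inhibitor p21, stood at 55.5 to 252 CPM in the 6 knockout libraries and at 609 to 1110 CPM in the 6 wild-type ones, with no overlap. Mdm2 did overlap, at 52.8 to 213 CPM in knockout and 156 to 444 CPM in wild-type libraries. Plk2, another known target, went the other way in M1 cells, where it was higher in KO_M1 than in WT_M1 (levels below). Targets of p53 thus did not all differ in the same direction, and these levels do not settle the label.

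The 2 states differed across many genes. Of 11779 genes, 2993 or 25.4% were called at an adjusted p under 0.05, 1456 (12.4%) higher in KO_M1 and 1537 (13%) higher in KO_M2, and 4232 (35.9%) had no overlap between the groups. Among called genes 1589 differed at least 2-fold, and 74 in KO_M1 and 81 in KO_M2 stood over 16-fold above the other state. The median log2 fold change (KO_M1 minus KO_M2) was -0.02 over all genes tested and its absolute median over called genes was 1.07. A call here is an adjusted p under 0.05 in edgeR's quasi-likelihood test with Benjamini-Hochberg adjustment over all 11779 genes, and each gene below is called unless it is said not to be. Fitted on the 6 libraries alone, edgeR called 1782 genes, 1745 of them shared with the 2993. Among genes named below, Irf7, Mx2, Mmp8, Cxcl10, Fcgr1, Igtp and H2-K1 were not called in that fit (edgeR adjusted p 0.0552, 0.0566, 0.0577, 0.0644, 0.0695, 0.0701 and 0.0753). Nor were BC005537, Dock8 and Gcnt1 (edgeR adjusted p 0.0874, 0.129 and 0.133). In bulk RNA, fewer cells of a kind and less RNA per cell cannot be told apart.

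**Figure D1:**
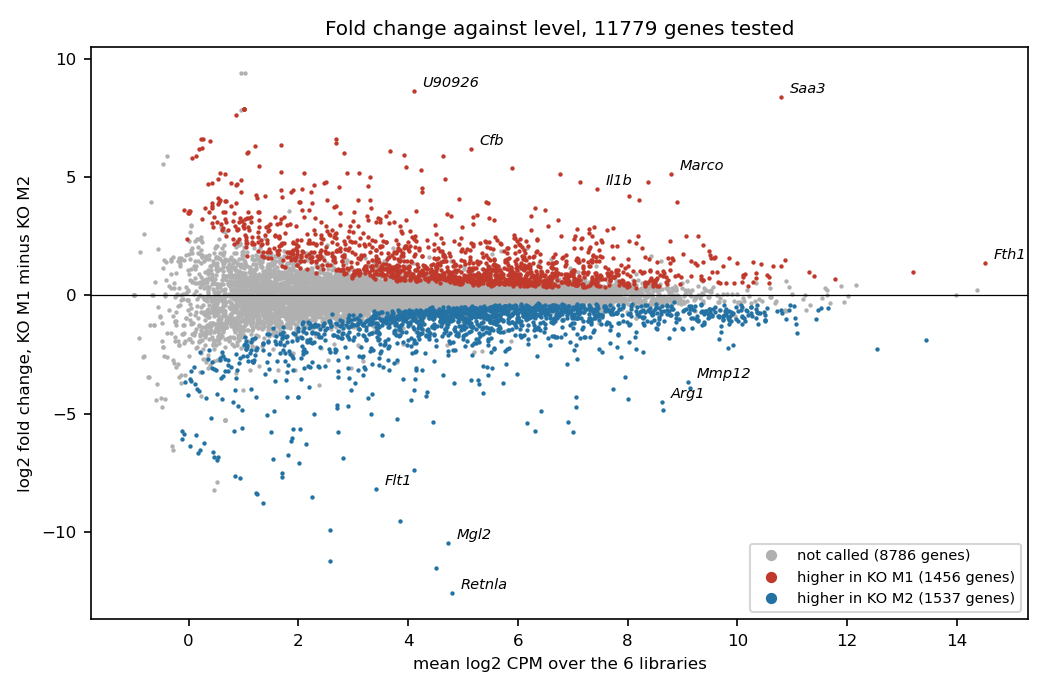
Log2 fold change (KO_M1 minus KO_M2, vertical) against the mean log2 CPM over the 6 libraries (horizontal), 1 point per tested gene. Red marks the 1456 genes called higher in KO_M1, blue the 1537 called higher in KO_M2, grey the rest; Saa3 combines a log2 fold change of 8.38 with a high level, and Retnla stands lowest of the labelled genes at -12.59.

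The 3 marker genes separated the groups, Saa3 towards KO_M1 and Retnla and Arg1 towards KO_M2. Saa3, which encodes an acute-phase serum amyloid A protein made by macrophages (ENSMUSG00000040026, chromosome 7, 46711998 to 46715700 in GENCODE M21), stood at 33200, 44300 and 26400 CPM in KO_M1 and at 71.4, 64.6 and 176 CPM in KO_M2. Every KO_M1 library was far above every KO_M2 library, for a log2 fold change of 8.38 (adjusted p 4.94e-06 by edgeR, SE 1.13). Retnla, which encodes the secreted protein RELMα (ENSMUSG00000061100, chromosome 16, 48842551 to 48844461), had 4 counts over the 3 KO_M1 libraries, at 0, 0.253 and 0.67 CPM, and stood at 5860, 455 and 406 CPM in KO_M2. All KO_M2 libraries were high, replicate 1 by far the most, and the log2 fold change was -12.59 (adjusted p 7.83e-07 by edgeR, SE 1.49), or -10.21 without KO_M2 replicate 1. Arg1, which encodes arginase 1, the enzyme that splits arginine into ornithine and urea (ENSMUSG00000019987, chromosome 10, 24915221 to 24927484), stood at 141, 90.1 and 40.6 CPM in KO_M1 and at 1100, 2820 and 2340 CPM in KO_M2. The groups did not overlap, and KO_M1 kept a measurable level, so that the log2 fold change of -4.53 (adjusted p 7.76e-07 by edgeR, SE 0.541) was much smaller than that of Retnla.

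**Figure D2:**
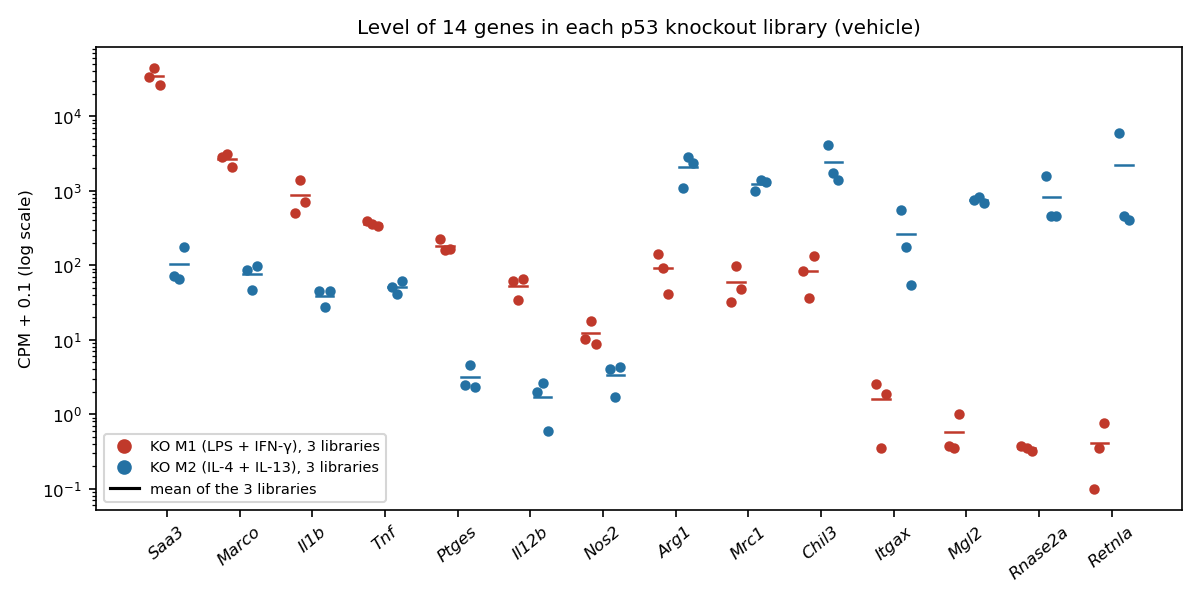
Level of 14 genes in each of the 6 libraries, as CPM + 0.1 on a log scale, with a point per library and a bar at the group mean (red KO_M1, blue KO_M2, n = 3 each). The groups do not overlap for any of the 14 genes; Nos2 is low in both, and Retnla in KO_M2 ranges from 406 to 5860 CPM.

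The 12 largest called differences towards KO_M1 among genes without overlap, Saa3 and Il1a included, were of genes with varied known roles. U90926, a gene whose product is little characterised, stood at 316, 319 and 185 CPM in KO_M1 and at 0.265, 0.676 and 0.992 CPM in KO_M2 (log2 fold change 8.64, adjusted p 3.55e-10 by edgeR, SE 0.615). Ptges, which encodes the synthase that makes prostaglandin E2, stood at 222, 161 and 166 CPM against 2.39, 4.51 and 2.23 CPM (log2 fold change 5.88, edgeR adjusted p 6.07e-07). In both genes all KO_M1 libraries were high and all KO_M2 libraries low, with 8 counts over the KO_M2 libraries for U90926 and 38 for Ptges. Cfb, complement factor B of the alternative pathway, had a log2 fold change of 6.17, and shared 77.9% of the 50-base stretches at its transcript ends with the overlapping gene Gm20547, so its counts cannot be assigned to 1 gene with certainty. Cd38, an enzyme that consumes NAD, had 6.12, the plasminogen activator inhibitor Serpinb2 had 5.93, with 38.3% of its end stretches shared with Serpinb10, and Fpr1, a receptor for formylated bacterial peptides, had 5.39. The activating receptors Cd300e (5.28) and Pilrb1 (5.17), the scavenger receptor Marco (5.14) and the protease inhibitor Slpi (5.13) followed.

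Of the 12 lowest fold changes, those of Retnla, Rnase2a, Mgl2, Ccl24 and Flt1 were of genes with 6 counts or fewer in KO_M1, while H2-Aa, Clec7a, Atp6v0d2 and Tmem26 had 261, 217, 146 and 131. Rnase2a, an eosinophil-type ribonuclease, had 3 counts over the KO_M1 libraries and stood at 1560, 460 and 451 CPM in KO_M2, a ratio of 3200 with a counting interval of 1090 to 15500. Mgl2, a galactose-binding lectin known as CD301b, had 6 counts in KO_M1 and stood at 738, 833 and 685 CPM in KO_M2 (log2 fold change -10.48, adjusted p 7.29e-11 by edgeR, SE 0.71). Both genes were high in all KO_M2 libraries, and replicate 1 stood out for Rnase2a but not for Mgl2. Ccl24, an eosinophil-attracting chemokine, had 5 counts in KO_M1 and stood at 665, 98.9 and 230 CPM in KO_M2 (-9.53). Flt1, the VEGF receptor 1, had 5 counts against 1581 (-8.18), and Itgax, the integrin CD11c, 18 against 3048 (-7.40). Plxdc2, a transmembrane protein, had -5.90, and Clec7a, the β-glucan receptor Dectin-1, annotated here as a polymorphic pseudogene, had -5.77. Atp6v0d2, a subunit of the proton pump known from osteoclasts, had -5.72, the transmembrane protein Tmem26 had -5.39 and H2-Aa, an MHC class II chain, had -5.36. Without KO_M2 replicate 1 the log2 fold change of Itgax was -6.24 and that of H2-Aa -4.27.

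Gene lists put these genes among others of the same role, and for each the count called is given with the median log2 fold change over the members tested. The same values over all genes are 25.4% called and a median of -0.02. Il6, Tnf, Il10, Cxcl10, Gch1, Cybb, Ciita, Nfkbia, Klf4, Adgre1, Pkm, Ldha, Sdha, Dcn, Lum, Mmp8 and Vwf were chosen for naming after their values were seen.

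**Figure D3:**
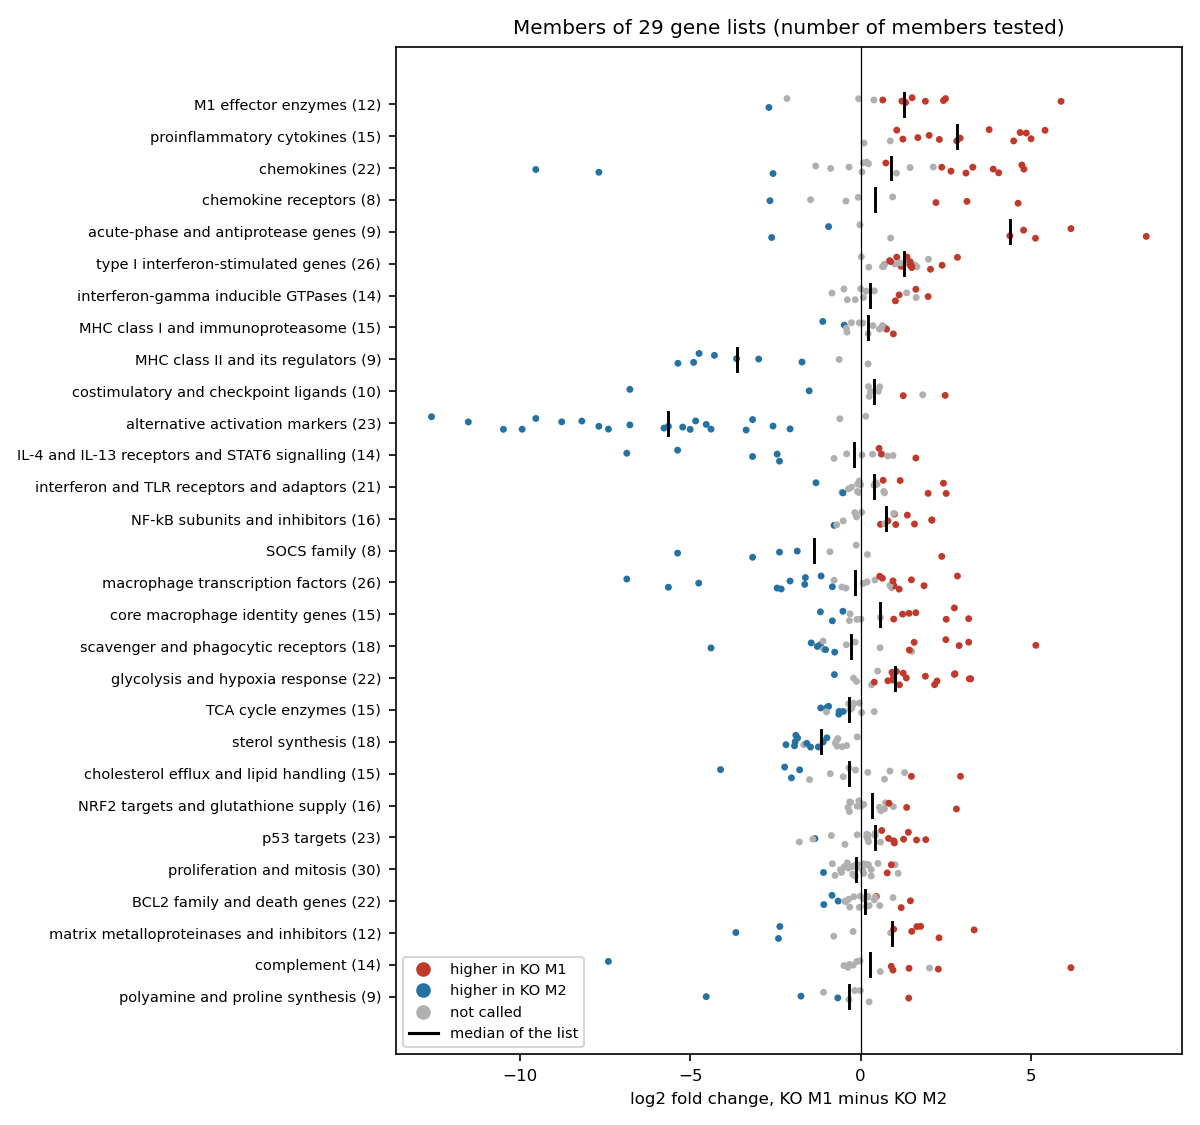
Log2 fold change (KO_M1 minus KO_M2) of every tested member of 29 gene lists, 1 point per gene, with the number tested in brackets and a black tick at the list median. Red points are called higher in KO_M1, blue higher in KO_M2, grey not called; alternative activation markers reach down to -12.59 with a median of -5.64, and proinflammatory cytokines have a median of 2.82.

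Secreted mediators came first among the M1 groups. Of 21 proinflammatory cytokine genes, 15 were tested, 13 were higher in KO_M1 and none in KO_M2, with a median of 2.82. Il1b, the inflammasome-processed cytokine, stood at 509, 1410 and 708 CPM in KO_M1 and at 44.3, 27.7 and 44.6 CPM in KO_M2 (log2 fold change 4.49, adjusted p 5.48e-05 by edgeR, SE 0.737). KO_M1 replicate 2 was the highest of the libraries, and there was no overlap. Its relative Il1a had a log2 fold change of 5.41, Il12b, the shared chain of IL-12 and IL-23, had 5.00, Il6 had 4.68 and Tnf had 2.82. Il10, an anti-inflammatory cytokine, was also higher in KO_M1, at 29.1, 15.9 and 30.1 CPM against 0.796, 0.225 and 4.46 CPM (log2 fold change 3.77, edgeR adjusted p 0.000154).

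Chemokines stood on both sides. Of 22 tested, 9 were higher in KO_M1 and 3 in KO_M2, with a median of 0.90, or 1.70 without KO_M2 replicate 3. Ccl5, which draws T cells, stood at 3270, 939 and 1800 CPM in KO_M1 and at 32.9, 55 and 128 CPM in KO_M2 (log2 fold change 4.79, edgeR adjusted p 2.05e-05). Ccl3 had a log2 fold change of 4.05, and Cxcl10, an IFN-γ-inducible ligand of CXCR3, had 3.29. The 3 that were higher in KO_M2 were Ccl24 and the CCR4 ligands Ccl17, with 1 count in KO_M1 and 290 in KO_M2 (a ratio of 286, counting interval 50.9 to 11300), and Ccl22, with a log2 fold change of -2.57 that was no longer called without KO_M1 replicate 3 (-2.23, edgeR adjusted p 0.0545). Among 8 chemokine receptors tested, 3 were higher in KO_M1 and 1 in KO_M2. Cx3cr1, the fractalkine receptor, had a log2 fold change of 4.62 and Ccr2, the receptor of monocyte recruitment, one of -2.66.

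Among 12 effector enzymes tested, 8 were higher in KO_M1 and 1 in KO_M2, with a median of 1.27. Sod2, the mitochondrial superoxide dismutase, stood at 1430, 1530 and 1480 CPM in KO_M1 and at 274, 258 and 260 CPM in KO_M2 (log2 fold change 2.49, adjusted p 7.07e-06 by edgeR, SE 0.356), with little spread inside either group. Cybb, the catalytic chain of the phagocyte NADPH oxidase, had 1.32 and Gch1, which makes the cofactor of nitric oxide synthase, had 1.21. Nos2, the inducible nitric oxide synthase that is the textbook M1 marker, was low in both states. It stood at 10.2, 17.7 and 8.7 CPM in KO_M1 and at 3.98, 1.58 and 4.22 CPM in KO_M2, without overlap (log2 fold change 1.90, adjusted p 0.0219 by edgeR, SE 0.615). That call was lost without KO_M1 replicate 2 (1.56, edgeR adjusted p 0.0885) and without KO_M2 replicate 2 (1.56, edgeR adjusted p 0.102). Ptgs2, the cyclooxygenase 2 gene, had a log2 fold change of 2.43 and rested on KO_M1 replicate 2, without which it was 1.58 (edgeR adjusted p 0.0602). The 1 member higher in KO_M2 was Slc7a2, a carrier of arginine, at -2.69. Without KO_M1 replicate 2, 5 enzymes were higher in KO_M1 and 2 in KO_M2. Of 9 acute-phase and antiprotease genes tested, 5 were higher in KO_M1 and 2 in KO_M2, with a median of 4.38.

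Some of the sensors and feedback regulators of these signals differed as well. Of 21 interferon and Toll-like receptors and adaptors tested, 6 were higher in KO_M1 and 2 in KO_M2, with a median of 0.39. Leaving out 1 library gave 5 or 6 in KO_M1 and 1 to 3 in KO_M2. Without KO_M1 replicate 2 there were 5 and 1 (median 0.32), near the 25.4% called over all genes. Cd14, which hands LPS to TLR4, stood at 244, 576 and 381 CPM in KO_M1 and at 63.4, 71.2 and 76.1 CPM in KO_M2 (log2 fold change 2.51, edgeR adjusted p 1.81e-06), and Tlr2 had 1.98. Tlr4 went the other way, at 23.6, 27.8 and 16.3 CPM against 52.5, 52.7 and 62.8 CPM (-1.31, edgeR adjusted p 9.49e-05). Of 16 NF-kB subunits and inhibitors tested, 8 were higher in KO_M1 and 1 in KO_M2, with a median of 0.76. The number higher in KO_M2 was 0 without KO_M1 replicate 1 or 3 or KO_M2 replicate 1, and 2 without KO_M2 replicate 3. Tnip1 and the atypical IκB protein Nfkbiz led, both at 2.09, and Nfkbia, which encodes the inhibitor IκBα, had 1.37.

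Interferon-stimulated genes showed how far a single library can move a group. Of 26 type I interferon-stimulated genes, all tested, 12 were higher in KO_M1 and none in KO_M2, with a median of 1.27. Their summed level was 8930, 6710 and 6750 CPM in KO_M1 and 1050, 2230 and 4960 CPM in KO_M2. KO_M2 replicate 3 thus lay closest to the KO_M1 range. Rsad2, which encodes the antiviral protein viperin, stood at 1030, 597 and 836 CPM in KO_M1 and at 37.4, 136 and 612 CPM in KO_M2, so that the groups overlapped and it was not called (log2 fold change 1.65, adjusted p 0.125 by edgeR, SE 0.772). Without KO_M2 replicate 3 it was called, at 3.24 (edgeR adjusted p 0.00658). Isg15, a ubiquitin-like modifier, was not called either (1.00, edgeR adjusted p 0.243), but was without that library (2.18, edgeR adjusted p 0.0147). Irf7, the interferon regulatory factor that amplifies the response, was called in the fit to 36 libraries, at 965, 449 and 635 CPM against 25.7, 64.4 and 195 CPM (2.84, edgeR adjusted p 0.00259), and the antiviral GTPase Mx2 likewise at 2.39. The count of 12 was 21 without KO_M2 replicate 3 (median 2.02), but 3 without KO_M2 replicate 1 (median 0.90) and 6 without KO_M2 replicate 2 (median 1.08). With no filter on low counts it was 23, Rsad2 and Isg15 among them at much the same fold changes (1.67 and 1.03, edgeR adjusted p 7.95e-17 and 3.06e-06).

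**Figure D4:**
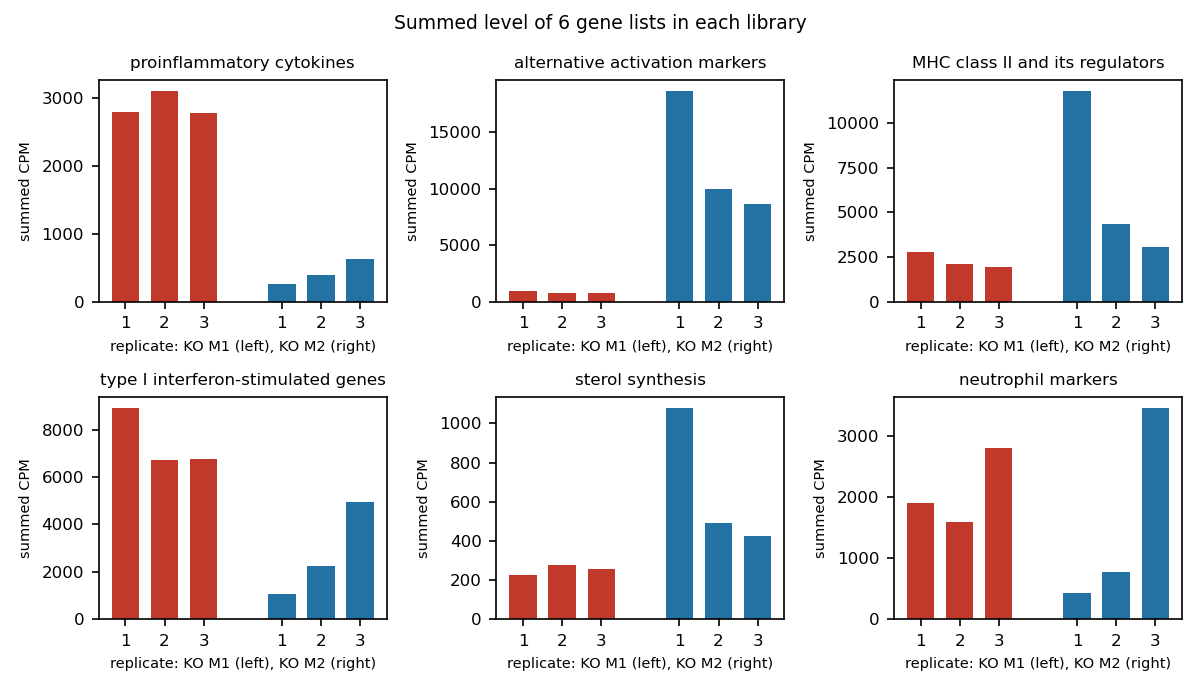
Summed CPM of 6 gene lists in each library (bars, red KO_M1 and blue KO_M2, replicate number below), on axes that start at 0. KO_M2 replicate 1 is the highest in MHC class II genes and sterol genes, KO_M2 replicate 3 reaches 4960 CPM in interferon-stimulated genes and 3470 CPM in neutrophil markers, and cytokines and alternative activation markers separate all libraries.

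Of 14 GTPases inducible by IFN-γ that were tested, 4 were higher in KO_M1 and none in KO_M2, with a median of 0.28. That share was near the 25.4% called over all genes. Without KO_M2 replicate 3 there were 6 and none, with a median of 1.53. Igtp, an immunity-related GTPase, stood at 90.1, 62.5 and 85.9 CPM against 11.1, 16.2 and 50.1 CPM (log2 fold change 1.62, edgeR adjusted p 0.00287), and 2.53 without KO_M2 replicate 3. Of 15 genes of MHC class I and the immunoproteasome, 3 were higher in KO_M1 and 2 in KO_M2, with a median of 0.22. B2m, the light chain of MHC class I, had 0.69 and H2-K1, a heavy chain whose ends shared 14.1% of their stretches with other MHC genes, had 0.76. Psmb10, an immunoproteasome subunit, was higher in KO_M2, at -1.11. MHC class II genes, also known as targets of IFN-γ, were all on the KO_M2 side where called, 7 of 9 tested, with a median of -3.64. Cd74, the invariant chain, stood at 25.8, 22.3 and 35.9 CPM in KO_M1 and at 1370, 519 and 358 CPM in KO_M2 (log2 fold change -4.74, adjusted p 2.09e-05 by edgeR, SE 0.718). H2-Eb1 had -4.90, and Ciita, the transactivator of the class II genes, had -3.64 on 8 counts in KO_M1 and 104 in KO_M2. The lowest KO_M2 library of Cd74 and H2-Eb1 was replicate 3, and it was still far above the highest KO_M1 library.

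On the M2 side, 21 of 23 alternative activation markers tested were higher in KO_M2 and none in KO_M1, with a median of -5.64. This list was written from textbook markers of the state, so its direction is no independent evidence. Chil3 stood at 83.2, 35.7 and 133 CPM in KO_M1 and at 4120, 1740 and 1380 CPM in KO_M2 (log2 fold change -4.84, adjusted p 3.07e-06 by edgeR, SE 0.636), and 17.1% of its end stretches are shared, mostly with Chil4. Mrc1, the mannose receptor, stood at 32.1, 97.7 and 48 CPM in KO_M1 and at 999, 1410 and 1320 CPM in KO_M2 (-4.39, adjusted p 1.27e-08 by edgeR, SE 0.408). Both genes kept a clearly measurable level in KO_M1, unlike Retnla, Rnase2a and Mgl2.

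Of 14 genes of IL-4 and IL-13 receptors and STAT6 signalling tested, 3 were higher in KO_M1 and 5 in KO_M2, with a median of -0.18. The receptor chain Il4ra was higher in KO_M1, at 438, 240 and 248 CPM against 97.4, 76.6 and 126 CPM (log2 fold change 1.62, edgeR adjusted p 1.46e-05). Cish, a feedback inhibitor of cytokine receptors, stood at 3.85, 3.54 and 2.45 CPM in KO_M1 and at 191, 135 and 81.1 CPM in KO_M2 (-5.37, adjusted p 1.05e-12 by edgeR, SE 0.347), and the zinc finger factor Egr2 had 6 counts against 739 (-6.86). Among 8 genes of the SOCS family, which inhibit cytokine receptors, 1 was higher in KO_M1 and 4 in KO_M2. Socs3, the inhibitor of IL-6-type receptors, had 2.38, while Socs1 had -2.38 and Socs2 had -3.17.

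Transcription factors were divided, with 8 of 26 higher in KO_M1, 10 higher in KO_M2 and a median of -0.17. On the M1 side stood Irf7, the AP-1 factor Batf (1.86) and Nr1h3, which encodes the liver X receptor α (1.49). On the M2 side stood Irf4 (-4.75, 14 counts against 382), the lipid sensor Pparg (-5.64, 4 counts against 220) and Klf4 (-2.07). Klf4 stood at 42.9, 33.2 and 31.2 CPM against 126, 190 and 135 CPM, without overlap.

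Both groups expressed macrophage genes. Csf1r, the receptor of M-CSF, stood at 1510, 1330 and 1660 CPM in KO_M1 and at 2450, 1870 and 1270 CPM in KO_M2, with overlapping groups and no call (log2 fold change -0.31, adjusted p 0.47 by edgeR, SE 0.29). Of 15 core macrophage genes, 7 were higher in KO_M1 and 3 in KO_M2 (1 without KO_M2 replicate 1), with a median of 0.58. Adgre1, which encodes F4/80, had 1.62, Aif1 had 2.75 and Fcgr1, the high-affinity IgG receptor, had 3.17, or 4.58 without KO_M2 replicate 3. Receptors for particles fell on both sides, 6 of 18 tested higher in KO_M1 and 6 in KO_M2, the latter 3 without KO_M1 replicate 1 or 3 or KO_M2 replicate 1. Marco and Clec4e, the receptor Mincle (2.89), led in KO_M1. Marco stood at 2840, 3140 and 2110 CPM against 85.4, 46.4 and 98.5 CPM. In KO_M2, besides Mrc1, the lipid receptors Trem2 (-1.45) and Cd36 (-1.27) were higher. Trem2 stood at 121, 121 and 131 CPM against 386, 346 and 287 CPM.

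Metabolic genes differed by smaller amounts. Of 22 genes of glycolysis and the hypoxia response, 17 were higher in KO_M1 and 1 in KO_M2, with a median of 1.01. Pfkfb3, which makes the activator of phosphofructokinase, stood at 211, 116 and 116 CPM in KO_M1 and at 10.9, 12.6 and 24.8 CPM in KO_M2 (log2 fold change 3.19, adjusted p 1.41e-07 by edgeR, SE 0.36). The lactate exporter Slc16a3 had 2.77, and the enzymes Pkm and Ldha, with 34.8% and 14.2% of their end stretches shared with pseudogene copies, had 1.25 and 0.97. Of 15 enzymes of the citric acid cycle, 6 were higher in KO_M2 and none in KO_M1, with a median of -0.35. Fh1, fumarase, had -1.17, the isocitrate dehydrogenase subunit Idh3g had -0.98 and the succinate dehydrogenase subunit Sdha had -0.64. Sdha stood at 128, 122 and 157 CPM against 224, 235 and 173 CPM.

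Of 18 genes of sterol synthesis tested, 10 were higher in KO_M2 and none in KO_M1, with a median of -1.17. The 10 became 7 without KO_M2 replicate 1 (median -0.81) and 12 without KO_M2 replicate 3 (median -1.31). Hmgcs1, an early enzyme of the pathway, stood at 22.5, 29.9 and 19 CPM in KO_M1 and at 165, 55.4 and 54.1 CPM in KO_M2 (log2 fold change -1.94, adjusted p 0.000451 by edgeR, SE 0.39). KO_M2 replicate 1 was the highest library, and without it Hmgcs1 was at -1.20 and still called (edgeR adjusted p 0.0134). Of 15 genes of lipid handling, 2 were higher in KO_M1 and 4 in KO_M2, with a median of -0.34. These were 4 and 5 without KO_M2 replicate 3 and 5 and 6 with no filter on low counts, and without KO_M2 replicate 1 the median was 0.22. Fabp4, a fatty acid-binding protein, stood at 9.34, 12.4 and 9.37 CPM against 323, 98.9 and 119 CPM (-4.11), the lipase Lpl had -2.23, and the cholesterol exporter Abcg1 had -2.03.

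The remaining lists differed in how many members were called. Of 16 NRF2 targets and glutathione genes, 3 were higher in KO_M1 and none in KO_M2, below the 25.4% over all genes. Leaving out 1 library gave 2 or 3 and none, and there were 8 and none with no filter on low counts. Hmox1, heme oxygenase 1, stood at 510, 345 and 401 CPM against 44.6, 65.8 and 68.2 CPM (log2 fold change 2.81, edgeR adjusted p 2.12e-07). Fth1, the ferritin heavy chain, stood at 42900, 39800 and 30800 CPM against 16600, 13200 and 14800 CPM (1.35). Of 12 matrix metalloproteinases and inhibitors tested, 6 were higher in KO_M1, among them the membrane-bound Mmp14 (2.30), and 3 in KO_M2, among them the macrophage elastase Mmp12 (-3.66) and the inhibitor Timp2 (-2.41). The 6 became 3 without KO_M1 replicate 1 or KO_M2 replicate 1. Mmp12 stood at 160, 124 and 183 CPM against 2000, 2210 and 1700 CPM. Of 14 complement genes tested, 5 were higher in KO_M1 and 1 in KO_M2. Of 22 genes of the BCL2 family and of cell death, 3 were higher in each state, together near the 25.4% over all genes. The number in KO_M2 was 1 without KO_M1 replicate 2 or KO_M2 replicate 1, and that in KO_M1 was 5 without KO_M2 replicate 3. Of 30 proliferation genes, 2 were higher in KO_M1, E2f1 among them at 0.90, and 1 in KO_M2, below the 25.4% over all genes, and leaving out 1 library gave 1 to 4 and 0 to 3. Of 9 polyamine and proline genes, 1 was higher in KO_M1 and 3 in KO_M2, Arg1 and the polyamine acetylase Sat1 (-1.75) among them, and without KO_M1 replicate 1 or KO_M2 replicate 3 there were 0 and 2, and without KO_M2 replicate 1 there were 0 and 3. Of 10 costimulatory and checkpoint ligands, 2 were higher in each state. The number in KO_M1 was 1 without KO_M1 replicate 1 and 3 without KO_M2 replicate 1 or 3.

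Targets of p53 were measured in cells labelled as p53 knockout. Of 26 listed genes 23 were tested, 8 were higher in KO_M1 and 1 in KO_M2, with a median of 0.43. These counts were 2 and 0 without KO_M2 replicate 1, 5 and 0 without KO_M1 replicate 3, and 6 and 0 without KO_M1 replicate 1. Cdkn1a stood at 252, 196 and 247 CPM in KO_M1 and at 55.5, 93.3 and 142 CPM in KO_M2, without overlap (log2 fold change 1.26, adjusted p 0.0011 by edgeR, SE 0.279). Mdm2 stood at 213, 173 and 213 CPM and at 52.8, 67.6 and 72.2 CPM (1.64, adjusted p 4.72e-05 by edgeR, SE 0.278). Ccng1, another target, stood at 33, 36.2 and 34.6 CPM against 37.9, 36.3 and 37 CPM and was not called (-0.10, adjusted p 0.798 by edgeR, SE 0.232).

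Markers of other cell types were summed per library. The 12 neutrophil markers came to 1900, 1600 and 2810 CPM in KO_M1 and to 434, 769 and 3470 CPM in KO_M2, of which 9 were tested and 1, Mmp8, was called (log2 fold change 1.65, edgeR adjusted p 0.0329, and not called without KO_M1 replicate 2, at 0.90, nor without any 1 of the KO_M2 replicates, at 1.52, 1.78 and 1.67). In KO_M2 replicate 3 this sum was high together with the interferon-stimulated genes, and its part in those results was not tested. Erythroid and megakaryocyte markers came to 1290 to 4110 CPM in KO_M1 and to 1390 to 1860 CPM in KO_M2, nearly all of it Pf4, while 3 of 9 were at 0 counts in all 6 libraries. The 8 stem and progenitor markers came to 543, 242 and 415 CPM in KO_M1 and to 43, 104 and 376 CPM in KO_M2. Only 4 of them were tested, while Kit, Myb, Hlf and Mecom did not pass the filter. Of these 4 only Procr, the protein C receptor, was called, higher in KO_M1. Whether progenitor cells were present was not tested. B cell, T and NK cell, mast cell and dendritic cell markers came to at most 14.9, 76.6, 8.18 and 10.6 CPM in any library, with Siglecf of the mast cell and eosinophil list and Zbtb46 of the dendritic list called higher in KO_M2. Of 9 fibroblast markers, 145 to 218 CPM against 86.3 to 119 CPM in sum, the matrix proteoglycans Dcn (14.3, 11.9 and 13.4 CPM against 0.265, 0.676 and 0.744 CPM) and Lum (107 counts against 2) were higher in KO_M1. Of 6 endothelial markers, 40.5 to 59.8 CPM against 101 to 150 CPM, Vwf was higher in KO_M2 (-3.55).

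Single libraries also moved the size of named fold changes that stayed called. Without KO_M2 replicate 3, those of Il10 (5.59), Irf7 (3.91), Cxcl10 (4.48), Mx2 (3.18), Ccl3 (4.76), Ccl5 (5.51), Il6 (5.39), Cd300e (6.06), Fpr1 (6.17) and Saa3 (8.99) were larger. Without KO_M2 replicate 1, those of Ccl24 (-8.52), Rnase2a (-10.66), Plxdc2 (-4.82), Chil3 (-4.21), Cd74 (-3.96), H2-Eb1 (-4.04), Ciita (-2.89), Egr2 (-6.27), Irf4 (-4.04), Socs2 (-2.45), Fabp4 (-3.38) and Vwf (-2.64) were smaller. Without KO_M1 replicate 2, those of Ccl17 (-9.47), Ccl24 (-11.02), Ccl22 (-3.30), Egr2 (-7.76), Pparg (-6.85) and Socs1 (-3.18) were larger and those of Cx3cr1 (3.91) and Il6 (4.07) smaller. Without KO_M1 replicate 3, those of Retnla (-13.73) and Mgl2 (-11.31) were larger and that of Ccl24 (-8.90) smaller. Ccl17, Ccl24, Egr2, Pparg, Retnla and Mgl2 had only a few counts in KO_M1. Their values without a KO_M1 library thus rest on single counts and have no certain size.

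The M1-M2 difference of knockout cells was then compared with that of wild-type cells. The wild-type contrast called 3004 genes, and 1577 genes were called in both in the same direction, 52.7% of the knockout calls and 52.5% of the wild-type calls, while 33 were called in opposite directions. Of the 155 genes with an absolute log2 fold change over 4 in knockout cells, 122 were called in the same direction in wild-type cells. Across the 11779 genes, which are not independent replicates, the 2 log2 fold changes had a Pearson r of 0.614 and a Spearman rho of 0.489, over contrasts that share no library.

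The difference itself, KO minus WT, was called for 338 genes (2.87% of those tested), 215 (1.83%) more positive and 123 (1.04%) more negative in knockout cells, and 230 of them had opposite signs in the 2 genotypes. This count was unstable. Without KO_M1 replicates 1, 2 and 3 it was 86, 934 and 104, without KO_M2 replicate 3 it was 175, without WT_M1 replicates 1, 2 and 3 it was 121, 118 and 209, and without WT_M2 replicate 1 it was 194. The positive share was 63.6%, but 49.1% without KO_M1 replicate 2 (459 positive and 475 negative), and 79.4% under scaling by total counts, which put the median difference of all genes at 0.11 in place of 0.01 on the log2 scale.

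**Figure D5:**
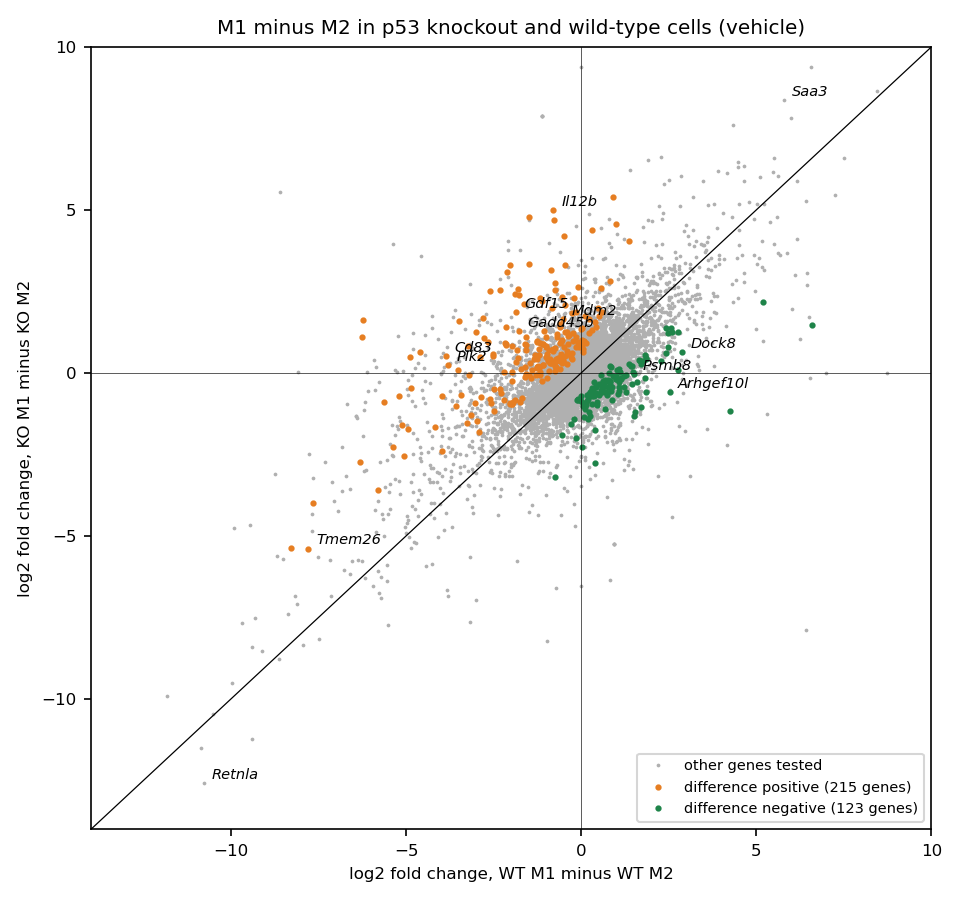
Log2 fold change M1 minus M2 in knockout cells (vertical) against that in wild-type cells (horizontal), 1 point per tested gene, with the line of equality. Orange points are the 215 genes whose difference KO minus WT was called positive and green the 123 called negative; Il12b lies at 5.00 in knockout and -0.81 in wild-type cells.

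The genes with the lowest p among positive differences had their lowest mean in WT_M1. Gadd45b, a stress-induced regulator of MAP kinase signalling, stood at 119, 113 and 93.7 CPM in KO_M1, 52, 43.7 and 37.9 CPM in KO_M2, 9.24, 13 and 11.3 CPM in WT_M1 and 34.2, 39.8 and 42.4 CPM in WT_M2. It was thus higher in M1 than in M2 in knockout cells (log2 fold change 1.29) and lower in wild-type cells (-1.79), a difference of 3.07 (adjusted p 4.76e-07 by edgeR, SE 0.318). Gdf15, a stress-induced cytokine, stood at 121, 77.2 and 112 CPM in KO_M1, 20.2, 27.5 and 37.5 CPM in KO_M2, 14.6, 11.1 and 13.3 CPM in WT_M1 and 62.1, 34.1 and 46.5 CPM in WT_M2 (difference 3.73, adjusted p 4.57e-06 by edgeR, SE 0.435). Plk2, a stress-induced kinase and known p53 target, stood at 58, 29.6 and 45.1 CPM in KO_M1, 36.1, 26.8 and 50.1 CPM in KO_M2, 3.87, 3.71 and 3.02 CPM in WT_M1 and 71, 46.7 and 30.7 CPM in WT_M2 (difference 4.03, edgeR adjusted p 1.26e-06). Its KO_M1 and KO_M2 libraries overlapped and were not called different. The same held for Cd83, a maturation marker with a difference of 4.39. Without KO_M2 replicate 1, however, Cd83 was called higher in KO_M1 (log2 fold change 1.10, edgeR adjusted p 0.0424). Sqstm1, the autophagy receptor p62, had a difference of 1.95 and Ier5, an immediate early gene, one of 1.34. Ier5 was not called between KO_M1 and KO_M2 (log2 fold change 0.25, edgeR adjusted p 0.157).

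Inflammatory genes were among the positive differences as well, 5 of the 15 tested cytokines against 1.83% of all genes. Il12b stood at 61, 34.2 and 64.3 CPM in KO_M1 and at 1.86, 2.48 and 0.496 CPM in KO_M2, but at 5.96, 4.77 and 4.78 CPM in WT_M1 and at 9.46, 16.6 and 0.95 CPM in WT_M2. The wild-type groups overlapped and the knockout groups did not, for a difference of 5.81 (adjusted p 0.000104 by edgeR, SE 0.825). Ccrl2, an atypical chemokine receptor, had a difference of 3.34 (edgeR adjusted p 0.0015) and Ptgs2 one of 4.32 (edgeR adjusted p 0.011). The cytokines Il6 (5.47, edgeR adjusted p 0.0231) and Tnf (2.01, edgeR adjusted p 0.0426) and the chemokine Ccl3 (2.70, edgeR adjusted p 0.0271) had called differences too, each lost under several alternatives. Without WT_M2 replicate 1 these 3 were not called (4.13, 1.67 and 1.70, edgeR adjusted p 0.181, 0.11 and 0.106), and the differences of Ccrl2 and Ptgs2 were 2.58 and 3.47. Without WT_M2 replicate 2 that of Il12b was 5.07, and without KO_M1 replicate 2 that of Ptgs2 was 3.47. That of Il6 was 4.86 without KO_M1 replicate 2, 6.18 without KO_M2 replicate 3 and 6.55 without WT_M1 replicate 2. That of Ccl3 was 3.42 without KO_M2 replicate 3. The difference of Il1a, 4.50 (edgeR adjusted p 0.0195), was 2.08 and not called without WT_M2 replicate 1, which stood at 68.2 CPM beside 7.54 and 1.9 CPM (edgeR adjusted p 0.108). The differences of Mdm2 (2.15, edgeR adjusted p 0.00232, or 1.55 without WT_M2 replicate 1) and Cdkn1a (1.68, edgeR adjusted p 0.0195) were positive too. Cdkn1a stood at 687, 609 and 719 CPM in WT_M1 and at 1110, 777 and 803 CPM in WT_M2. The Cdkn1a call was lost without KO_M1 replicate 1 or 3, WT_M1 replicate 2 or WT_M2 replicate 1 (differences of 1.61, 1.63, 1.63 and 1.52, edgeR adjusted p 0.0607, 0.0524, 0.051 and 0.0501).

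Genes with the lowest p among negative differences had their highest mean in WT_M1. Psmb8, an immunoproteasome subunit induced by interferon, stood at 143, 216 and 178 CPM in KO_M1, 170, 151 and 232 CPM in KO_M2, 291, 299 and 284 CPM in WT_M1 and 101, 118 and 88 CPM in WT_M2. The knockout groups overlapped and were not called different, the wild-type groups did not overlap, and the difference was -1.55 (adjusted p 0.0014 by edgeR, SE 0.269). Dock8, a guanine nucleotide exchange factor of immune cells, stood at 17.6, 28.6 and 19.6 CPM in KO_M1, 12.7, 13.1 and 16.1 CPM in KO_M2, 60.8, 55.1 and 47.1 CPM in WT_M1 and 10.3, 5.13 and 6.33 CPM in WT_M2 (difference -2.24, edgeR adjusted p 0.000104). Klf2, a factor that restrains inflammatory genes, had a difference of -1.64, Arhgef10l, another exchange factor, one of -3.12, Gcnt1, a glycosyltransferase, one of -1.72 and BC005537 one of -1.63 (edgeR adjusted p 0.00232, 0.00232, 0.00325 and 9.32e-05). Klf2 and Arhgef10l were not called between KO_M1 and KO_M2 (log2 fold changes -0.43 and -0.59, edgeR adjusted p 0.137 and 0.252). Of the 12 lowest fold changes, those of Cish and Tmem26 had called differences, both positive. That of Cish was 2.92 (edgeR adjusted p 0.0144), and it was not called without KO_M1 replicate 1 or WT_M1 replicate 2 (2.80 and 2.83, edgeR adjusted p 0.0574 and 0.051). It was 4.14 without WT_M1 replicate 1 and 2.33 without WT_M1 replicate 3. That of Tmem26 was 2.41 (edgeR adjusted p 0.00361), with 14.3, 10.6 and 8.26 CPM in KO_M1 against 1.49, 1.06 and 1.51 CPM in WT_M1. Timp2 had a positive difference of 1.59. None of the 23 tested alternative activation markers and none of the 9 MHC class II genes had a called difference. Saa3 (2.60, edgeR adjusted p 0.229), Retnla (-1.80, edgeR adjusted p 0.774) and Arg1 (0.42, edgeR adjusted p 0.802) had none either, which does not show that they were equal.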

How the data were processed

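The authors deposited 1 table of raw counts per gene for 48 libraries, whole numbers with no normalization, and per the submitters' processing notes RSEM, Bowtie2 and DESeq2 were used, with no role given. For the genome build, the annotation and any molecular identifiers, the answer is not given in the sources used here. The labels' protocols describe 100 ng of RNA, QuantSeq FWD libraries and single reads of 75 bases. The 36 bone marrow-derived libraries (12 groups of 3) were fitted together in edgeR 4.0.16 (R 4.3.3) with filterByExpr, TMM scaling, a quasi-likelihood model with robust dispersion and 1 mean per group, so that all groups shared 1 estimate of the spread. Contrasts were KO_M1 minus KO_M2, the same in wild-type cells, and their difference. P-values were adjusted by Benjamini-Hochberg over 11779 genes, with a call at 0.05. A change against a group of 1 to 3 counts is given as a ratio with a 95% counting interval, which covers counting error only, or for Lum as counts. Coordinates are from GENCODE M21 (GRCm38). Genes with over 10% of the 50-base stretches in the last 300 bases of their transcripts shared with another gene are uncertain (11 of 118 named, Saa3, Mgl2, Sod2, Socs2 and Pilrb1 among them). On simulated counts, edgeR found 35.1% of 2-fold and 81.4% of 4-fold changes between the knockout groups, over 11315 genes. That simulation gave 115 calls in all, far fewer than the real contrast. The adjustment of p depends on the number of changed genes, so these shares need not hold for the real contrast. The members and gene lists were chosen with earlier results of these data known. Genes were named by rule: the 3 markers and 7 reference genes, the 12 largest and 12 lowest fold changes among called genes with a mean log2 CPM of 3 or more and no overlap, up to 3 called in each direction and 2 not called per list, and 6 differences in each direction. Alternatives were DESeq2 1.42.0, other scalings, no filter, fewer libraries, a replicate block and each library left out. Peritoneal and compound-treated groups were not compared here. Results for a few members of the lists are not reported here.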

Additional observations from a re-analysis of the deposited data

Results flagged for a closer look

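The M1-M2 log2 fold change differed between knockout and wild-type cells, by edgeR's test of the difference, for 338 genes. Of the 24 named here, 18 were more positive in knockout cells. The cytokine chain Il12b differed by 5.81, the cytokine Il6 by 5.47, the cytokine Il1a by 4.5, the maturation marker Cd83 by 4.39, the cyclooxygenase Ptgs2 by 4.32 and the kinase Plk2 by 4.03. The stress cytokine Gdf15 differed by 3.73, the chemokine receptor-like Ccrl2 by 3.34, the stress regulator Gadd45b by 3.07, the feedback inhibitor Cish by 2.92, the chemokine Ccl3 by 2.7 and Tmem26 by 2.41. Mdm2 differed by 2.15, the cytokine Tnf by 2.01, the autophagy receptor Sqstm1 by 1.95, Cdkn1a by 1.68, the inhibitor Timp2 by 1.59 and the early gene Ier5 by 1.34. More negative in knockout cells were the exchange factors Arhgef10l, at -3.12, and Dock8, at -2.24, the glycosyltransferase Gcnt1, at -1.72, the factor Klf2, at -1.64, BC005537, at -1.63, and the immunoproteasome subunit Psmb8, at -1.55.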

How the results depend on the processing

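The count of 2993 genes between KO_M1 and KO_M2 was 1782 with only the libraries of the groups compared and 1589 with a fold change of 2 or more asked for as well. With DESeq2 it was 3141, with the 18 vehicle libraries 2771, with no filter 2951, with median-ratio size factors 2972 and with total counts 2887, and leaving out 1 library gave 2101 to 3156. The count of 338 differences between genotypes was 936 with no filter, 578 with DESeq2, 80 with only the groups compared and 158 with the 18 vehicle libraries, and leaving out 1 library gave 86 to 934. The cause was not tested. A replicate block gave 2866 and 267 genes. Deviations of same-numbered KO_M1 and KO_M2 libraries correlated at 0.0556, -0.104 and 0.0314, and not every library correlated best with its own number, so the numbers were not taken as pairs. Of 118 named fold changes, 107 were called, 93 of them under every alternative run, and none of the 107 changed sign. Among 11 not called, Plk2 and Psmb8 changed sign: leaving out 1 library gave -0.01 to 0.49 for Plk2 and -0.17 to 0.16 for Psmb8. Another 3 of the 11, Cd83, Isg15 and Rsad2, were called under some alternatives. Of 24 named differences between genotypes, 16 were called under every alternative run, and Ccl3, Cdkn1a, Cish, Il1a, Il6, Mdm2, Ptgs2 and Tnf were not. Under the replicate block, Ccl3 (2.62, edgeR adjusted p 0.051) and Tnf (1.99, edgeR adjusted p 0.0721) were not called. With 3 libraries a group and 3625160 to 4195908 counts each, genes not called cannot be read as equal. Simulated 2-fold changes were mostly missed, though in a simulation with far fewer changed genes than were called here.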
